A study of Cavia porcellus with 12 samples.

Results

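A set of 9 genes of the guinea pig liver is described here: *TMEM213*, *SLC34A2*, *VSIG1*, *DSG4*, *PAK6*, *PTPRN*, *TMC1*, *ADGRG3* and *CIB4*. These 9 of 11896 measured gene symbols were chosen by their counts in the NASH and control groups, at or near 0 in 1 of them, and for having a known tissue of expression. The first 8 were read in guinea pigs with NASH and were near absent in controls, and *CIB4* was read in controls and was absent in NASH. As this contrast chose the genes, their levels in the groups are a description and carry no p-value.

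The study sequenced liver mRNA of 6 guinea pigs with non-alcoholic steatohepatitis (NASH, fatty liver with inflammation and cell injury) and of 6 controls, asking how the diseased liver differs in expression. All animals were female Dunkin Hartley guinea pigs, 10 weeks old on arrival, and each gave 1 sample from the left lateral lobe of a liver that had not been perfused. Controls ate chow (4% fat, 0% sucrose, 0% cholesterol) for 25 weeks and were labelled healthy. The NASH animals ate a high-fat diet (20% fat, 15% sucrose, 0.35% cholesterol) over the same 25 weeks, and those sequenced had bridging fibrosis, so that diet and disease cannot be told apart. Animals go by the numbers of their labels: controls are 5, 10, 31, 32, 45 and 56, while 2, 9, 11, 20, 41 and 65 had NASH.

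The mature liver is mostly hepatocytes, with bile duct epithelium, endothelium, macrophages and stellate cells as smaller populations. Most of the 9 genes are known from elsewhere, namely kidney, lung, stomach, hair follicle, inner ear, endocrine cells, white blood cells and testis. In a chronically injured liver, bile duct-like epithelium expands in the ductular reaction and leukocytes enter, so bulk RNA mixes more cell types than in a healthy liver. In such bulk samples fewer cells of a type and less RNA per cell cannot be told apart.

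Library totals were between 16980274 and 28636467 counts in controls and between 23704607 and 33091460 in NASH. Levels are counts per 1000000 (CPM) of a library total scaled with TMM factors, which were 0.804 to 0.875 in controls and 1.12 to 1.24 in NASH. A count of 0 in all animals of a group still allows 3 counts over the group, which is 0.0259 CPM in controls and 0.0155 CPM in NASH, and folds against such a group are lower bounds from this limit, which covers counting error only. CPM is not corrected for transcript length, so levels are compared between animals and not between genes. Among the marker genes of cell types, 8 of 10 measured hepatocyte markers fell in NASH (summed level 105000 to 126000 CPM in controls and 46200 to 68500 CPM in NASH), although on library size alone 3 were lower and 1, *ASGR1*, was higher. The largest part of this sum was *ALB* (74900 ± 7810 CPM in controls and 30500 ± 5730 CPM in NASH). Of 9 cholangiocyte markers 6 rose (345 to 547 CPM and 601 to 1230 CPM). Of the macrophage markers 3 of 9 rose and 1 fell, beside 27.9% and 26.0% of all symbols, and their summed level of 384 to 842 CPM in controls and 1040 to 1400 CPM in NASH overlapped between groups without *GPNMB* (369 to 773 CPM and 594 to 838 CPM). As for red cells, 8 of 10 erythroid markers rose (113 to 264 CPM and 570 to 4810 CPM). Most of their sum in NASH was *HBA1* (56.9 to 168 CPM in controls and 405 to 4290 CPM in NASH), on a count row with a second symbol. The part of these shifts in the levels of the 9 genes was not tested.

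**Figure D1:**
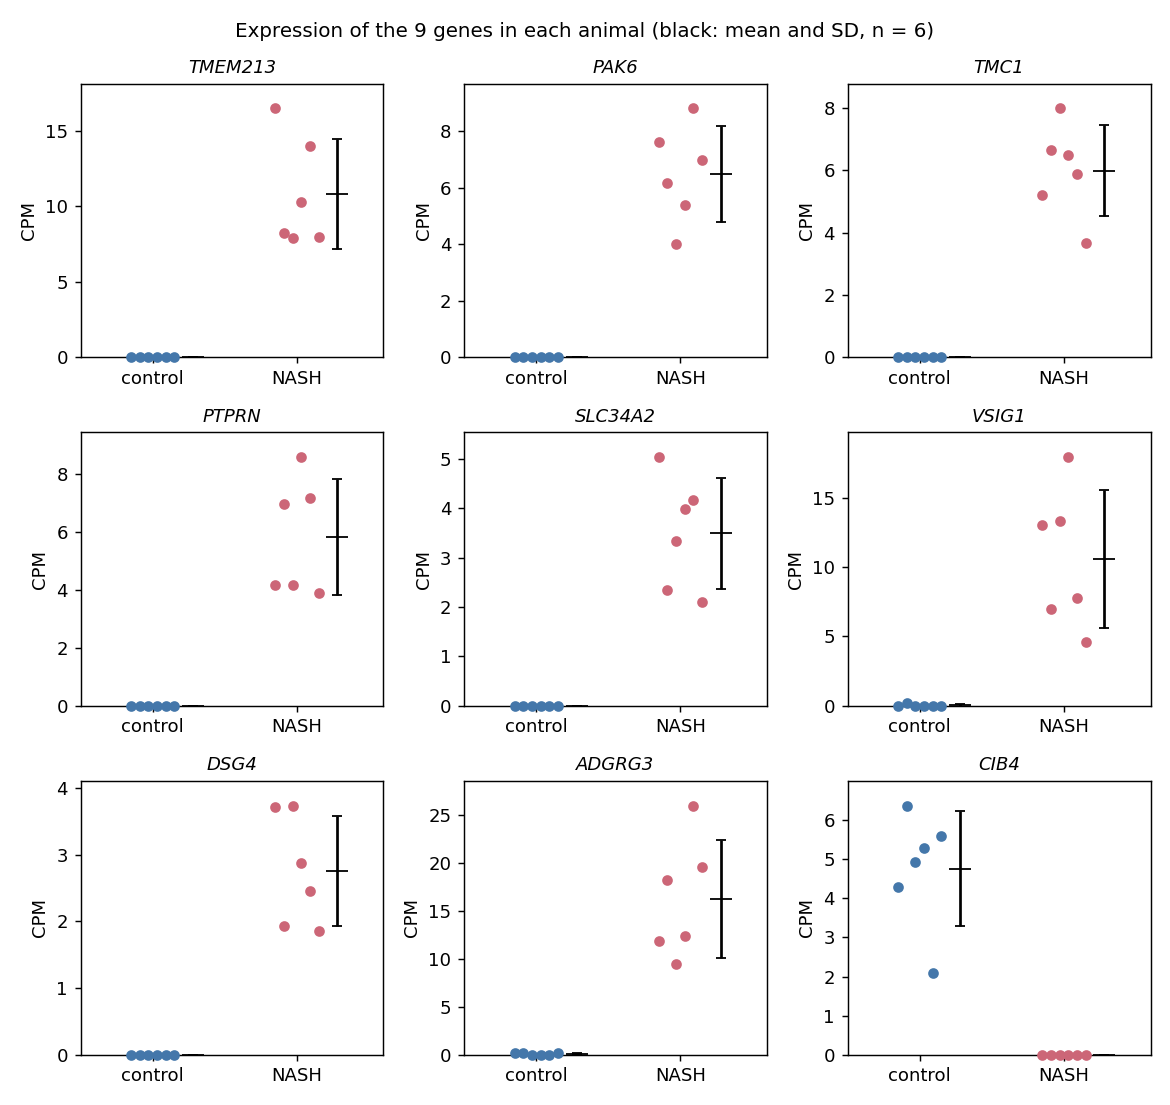
CPM of each of the 9 genes in each animal, with controls in blue, NASH in red and a black bar for the mean and SD (n = 6 per group). The vertical axes start at 0 and differ between genes. In 8 panels the controls lie at or next to 0 and all 6 NASH animals above them, and in the *CIB4* panel the groups are exchanged.

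The first pair of genes encodes transport-related membrane proteins of epithelia. *TMEM213* encodes a small transmembrane protein known from the acid-secreting intercalated cells of the kidney. It had no count in any control and 227 to 547 counts in each NASH animal, with a lowest, median and highest level of 7.93, 9.28 and 16.5 CPM. Animals 2 and 41 were above the other 4, whose levels were between 7.93 and 10.3 CPM, and the groups did not overlap. The NASH mean was 10.8 ± 3.62 CPM (SD, n = 6), at least 418-fold higher than the control limit.

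Of all 11896 symbols, 18.4% were higher in every NASH animal than in every control and 15.3% were lower in every NASH animal. The 9 genes belong to these by their choice. By edgeR's quasi-likelihood test (Benjamini-Hochberg adjusted p under 0.05), 53.9% of the symbols changed, 27.9% upwards and 26.0% downwards, and these shares are the background for the counts of related genes given with each member.

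The kidney list of *TMEM213* holds 14 genes of intercalated cells, of which 4 were measured, and 2 of these rose and 2 fell. *ATP6V0A4*, a kidney subunit of the proton-pumping vacuolar ATPase, was at 0.0342 ± 0.0837 CPM in controls and 17.9 ± 3.66 CPM in NASH (log2 fold change 8.83, SE 0.45). Control 10 had 4 of its counts and the other 5 controls none, whereas NASH animals had 364 or more. *SLC4A1*, the anion exchanger of intercalated cells and also of red cells, had a log2 fold change of 6.38 (SE 1.07) and is 1 of the erythroid markers that rose. Both entered the table through their NASH counts (4 and 82 counts over all controls, 3518 and 12034 over NASH), so that they could only be called higher and no p-value is given for them. The ammonia channel gene *RHBG* (log2 fold change -0.56, but -0.09 with edgeR adjusted p = 0.433 on library size alone) and the anion exchanger gene *SLC26A4* (-1.47) fell.

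*ATP6V0A4* is also the gene next to *TMEM213*. In the RefSeq annotation of assembly mCavPor4.1 the 2 genes overlap by 17.1 kb. This assembly is not the one the counts were made on (CavPor3.0), and whether counting used the strand of the reads is not given in the sources used here, so their counts are uncertain where the transcripts overlap. The ratio of *TMEM213* to *ATP6V0A4* counts, whose size also depends on the lengths of both, varied from 0.495 to 0.86 between the NASH animals. Over the 6 NASH animals their log2 CPM values had Pearson's r = 0.75 (exact permutation p = 0.0889) and Spearman's rho = 0.77 (exact permutation p = 0.103), and r was 0.87 without the 2 animals farthest from the median. With 6 animals this relation did not pass 0.05. On the other side, *ZC3HAV1L*, 172 kb away, rose from 9.4 ± 1.5 to 12.5 ± 1.16 CPM (log2 fold change 0.41, edgeR adjusted p = 0.00504).

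*SLC34A2* encodes a sodium-dependent phosphate cotransporter of the small intestine and of alveolar type II cells in the lung. No control had a count of it, and the NASH animals had 60 to 163. Their levels were 2.1, 3.67 and 5.03 CPM (lowest, median, highest), with animals 65 and 9 lowest and animal 2 highest. All NASH animals stood above all controls, with a mean of 3.49 ± 1.13 CPM (SD, n = 6), at least 135-fold higher than the control limit.

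The phosphate transport genes around *SLC34A2* moved in both directions. Of 12 listed genes 7 were measured, and 3 rose and 3 fell. *FGFR1*, a receptor for fibroblast growth factors, rose (log2 fold change 1.71, SE 0.22), as did the phosphate exporter gene *XPR1* (0.63). The widely expressed phosphate importers went apart: *SLC20A1* was at 0.55 (edgeR adjusted p = 0.0492, but 0.0507 with RLE size factors and 0.0775 without control 45), whereas *SLC20A2* fell (log2 fold change -1.02, SE 0.16). *SLC37A4*, which carries glucose 6-phosphate into the endoplasmic reticulum, fell from 144 ± 9.07 to 49 ± 10.7 CPM.

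Of the alveolar type II genes 5 of 11 were measured, and 4 rose and 1 fell. The aspartic protease gene *NAPSA* rose from 5.21 ± 1.4 to 17.8 ± 2.06 CPM (log2 fold change 1.76) and *LPCAT1*, an enzyme of surfactant lipid synthesis, from 2.95 ± 0.344 to 9.25 ± 0.871 CPM (1.65). The surfactant lipid transporter gene *ABCA3* also rose (log2 fold change 0.70). Surfactant protein D (*SFTPD*) fell from 3.37 ± 1.25 to 0.699 ± 0.286 CPM (log2 fold change -2.26, SE 0.32, edgeR adjusted p = 6.91e-05). Directly beside *SLC34A2* in the mCavPor4.1 annotation, *SEL1L3* rose from 2.23 ± 0.721 to 11.1 ± 2.82 CPM (log2 fold change 2.31, edgeR adjusted p = 5.33e-06). On the other side, *ANAPC4* did not pass the test (log2 fold change -0.04), but passed as higher on library size alone (0.44, edgeR adjusted p = 0.0175).

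The next pair belongs to contacts between epithelial cells. *VSIG1* encodes an adhesion protein of the immunoglobulin superfamily known from gastric epithelium and testis. It stood just outside a limit of 3 counts, because control 10 had 4 counts (0.205 CPM) and the other 5 controls had none. The NASH animals had 132 to 575 counts, with levels of 4.62, 10.4 and 17.9 CPM (lowest, median, highest). These levels fell apart, with animals 65, 9 and 41 at 4.62 to 7.75 CPM and animals 2, 11 and 20 at 13.0 to 17.9 CPM, and none overlapped a control. The NASH mean of 10.6 ± 4.98 CPM (SD, n = 6) was 307 times the level pooled over the controls, and the fitted log2 fold change was 8.07.

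Of the gastric genes 3 of 14 were measured and 1 rose, *ATP4A*, a subunit of the gastric proton pump (log2 fold change 1.11, SE 0.29, edgeR adjusted p = 0.0059). The mucosal peptide gene *TFF2* (0.23) and the pepsinogen gene *PGC* (-0.29) did not pass. Among 7 measured of 15 junctional adhesion genes, 3 rose and 0 fell. *CLMP*, an adhesion molecule of the same superfamily, rose from 0.503 ± 0.171 to 3.28 ± 0.877 CPM (log2 fold change 2.72), *CXADR*, the coxsackievirus and adenovirus receptor, from 42.4 ± 4.49 to 104 ± 13 CPM (1.29) and *JAM2* from 1.59 ± 0.505 to 2.61 ± 0.597 CPM (0.72). With 56 counts over all controls and 640 over NASH, *CLMP* entered the table through NASH, which favours a higher call. *VSIG10*, the other measured gene of the VSIG family, did not pass the test (log2 fold change -0.44, SE 0.32). Beside *VSIG1*, *PSMD10*, 5.76 kb away in mCavPor4.1, did not pass (log2 fold change -0.19), but passed as lower without control 31 (-0.23, edgeR adjusted p = 0.0207) and as higher on library size alone (0.29, adjusted p = 0.00554), and *MID2*, 130 kb away, rose (0.37, edgeR adjusted p = 0.00825).

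*DSG4* encodes a desmosomal cadherin of the hair follicle, where it joins keratinocytes. It had the fewest counts of the 9 genes, with none in controls and 53 to 114 in each NASH animal. The levels were 1.86, 2.66 and 3.73 CPM (lowest, median, highest), with animals 65 and 9 lowest and animals 2 and 11 highest, and no overlap between groups. The mean was 2.76 ± 0.833 CPM (SD, n = 6), at least 107-fold higher than the control limit.

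Of 15 desmosome genes 7 were measured, and 4 rose and 1 fell. The cadherins *DSG2* and *DSC2* of simple epithelia rose from 27.1 ± 8.35 to 73.3 ± 38.4 CPM (log2 fold change 1.44) and from 59.1 ± 12.6 to 158 ± 21 CPM (1.42). They are also the nearest measured genes matched in mCavPor4.1 on either side of *DSG4*, at 70.7 kb and 221 kb. Periplakin (*PPL*, log2 fold change 1.15) and plakoglobin (*JUP*, 0.49), which anchor the cadherins to keratin filaments, rose as well. *PERP*, a desmosomal membrane protein, fell (log2 fold change -0.83). Only 2 of 10 epidermal genes were measured. *SFN* rose (log2 fold change 1.80, SE 0.13), but its count row carried a second symbol, and the crosslinking enzyme gene *TGM1* did not pass the test (-0.58).

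Signalling and secretion are the fields of the next 2 genes. *PAK6* encodes a p21-activated kinase that binds the androgen receptor and is known from testis, prostate and brain. It had no count in controls and 122 to 345 in NASH. The lowest, median and highest NASH levels were 4.0, 6.56 and 8.8 CPM, in an unbroken spread from animal 11 to animal 41, and apart from the controls. Their mean was 6.49 ± 1.69 CPM (SD, n = 6), at least 251-fold higher than the control limit.

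Other members of the kinase family were read in both groups. Of 17 genes of the pathway 12 were measured, and 7 rose and 0 fell. *PAK1* rose from 2.43 ± 0.71 to 8.94 ± 1.84 CPM (log2 fold change 1.87, SE 0.20, edgeR adjusted p = 7.89e-06) and *PAK2* from 80.9 ± 5.77 to 99.2 ± 5.9 CPM (0.29). *PAK4*, of the same subgroup as *PAK6*, did not pass the test (log2 fold change 0.17, SE 0.09), but did on library size alone (0.64, edgeR adjusted p = 0.000121). Of the small GTPases that switch these kinases on, *RHOQ* (log2 fold change 1.87) and *RHOJ* (0.63) rose, and *CDC42* (0.14) and *RAC1* (-0.10) did not pass. With 68 counts over all controls and 419 over NASH, *RHOQ* entered the table through NASH, which favours a higher call. *LIMK2*, a target kinase that acts on actin turnover, rose from 20.6 ± 9.74 to 38.3 ± 12.1 CPM. *PLCB2*, a phospholipase gene 9.46 kb from *PAK6* in mCavPor4.1, rose from 6.14 ± 2.25 to 19.3 ± 1.64 CPM (log2 fold change 1.65, edgeR adjusted p = 4.49e-05), and *SRP14* on the other side did not pass (-0.04), but passed as higher on library size alone (0.44, edgeR adjusted p = 0.000253).

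*PTPRN* encodes a receptor-type phosphatase without enzyme activity that sits in the dense-core vesicles of endocrine and nerve cells and is an autoantigen in autoimmune diabetes. Controls had no count and NASH animals 111 to 281. Its levels in NASH were 3.89, 5.55 and 8.57 CPM (lowest, median, highest). Animals 65, 2 and 11 were at 3.89 to 4.16 CPM and animals 9, 41 and 20 at 6.95 to 8.57 CPM, all of them above the controls. The mean was 5.81 ± 2 CPM (SD, n = 6), at least 225-fold higher than the control limit.

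Of the 16 genes of dense-core vesicles 4 were measured, and 1 rose. *CPE*, which trims prohormones in these vesicles, was at 0.224 ± 0.215 CPM in controls and 1.72 ± 1.03 CPM in NASH (log2 fold change 2.99, SE 0.69), but with 24 counts over all controls it entered the table through NASH. The vesicle gene *SYP* (log2 fold change 0.43), the chaperone gene *SCG5* (-0.36) and the calcium sensor gene *SYT7* (0.58) did not pass. *DNAJB2*, 1.97 kb from *PTPRN* in mCavPor4.1, fell from 57.3 ± 11.4 to 36.6 ± 6.28 CPM (log2 fold change -0.65, edgeR adjusted p = 0.00221, but -0.17 with adjusted p = 0.302 on library size alone), and the muscle filament gene *DES* on the other side did not pass (-0.35).

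*TMC1* encodes the pore of the channel that turns sound into current in the hair cells of the inner ear. No control had a count of *TMC1*, and NASH animals had 105 to 244. Levels were 3.68, 6.19 and 7.99 CPM (lowest, median, highest). Animal 65 was lowest and animal 11 highest, the other 4 lay between 5.20 and 6.66 CPM, and the groups did not overlap. The mean was 5.98 ± 1.46 CPM (SD, n = 6), at least 231-fold higher than the control limit.

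Of 21 genes of the TMC family and of hair cell transduction 12 were measured, and 4 rose and 2 fell. Within the family, *TMC6* (log2 fold change 1.71, SE 0.18) and *TMC4* (1.08, SE 0.11) rose, *TMC5* (-2.08, SE 0.58) and *TMC3* (-0.69, SE 0.21) fell, and *TMC7* (0.11) and *TMC8* (0.49) did not pass. The count row of *TMC4* carried a second symbol. On library size alone *TMC3* no longer passed (-0.23, edgeR adjusted p = 0.297), and *TMC7* (0.58, adjusted p = 0.00713) and *TMC8* (0.96, adjusted p = 0.00584) did. *CIB2*, a calcium-binding partner of the channel and a relative of *CIB4*, rose from 1.03 ± 0.409 to 2.33 ± 0.629 CPM (log2 fold change 1.16). The motor protein gene *MYO15A* rose (0.94), whereas *CDH23* (-0.23) and *PCDH15* (-0.33), which form the link that pulls the channel open, did not pass. Among measured genes matched in mCavPor4.1, the closest found to *TMC1* was *GDA*, 322 kb away. It was at 161 ± 63.4 CPM in controls and 161 ± 24.2 CPM in NASH.

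*ADGRG3* encodes an adhesion G protein-coupled receptor of neutrophils. Controls 5, 10 and 56 had 3 counts each and the other 3 controls none, a mean of 0.095 ± 0.106 CPM. NASH animals had 288 to 1015 counts, with levels of 9.44, 15.3 and 25.9 CPM (lowest, median, highest). Animals 41, 65 and 9 were at 18.2 CPM or more and animals 11, 2 and 20 at 12.4 CPM or less, with every control far below. The NASH mean of 16.2 ± 6.14 CPM (SD, n = 6) was 209 times the level pooled over the controls, and the fitted log2 fold change was 7.60.

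Of 22 neutrophil genes 10 were measured, and 7 rose and 0 fell. *S100A9*, a calcium-binding protein of neutrophil cytosol, was at 0.294 ± 0.312 CPM in controls and 1.17 ± 0.572 CPM in NASH (log2 fold change 2.03), and its partner *S100A8* did not pass (1.26). Both had few control counts (32 and 49 over all controls) and entered the table through NASH. The integrin gene *ITGAM* (log2 fold change 1.85) and the oxidase subunit gene *CYBB* (1.53), both of which macrophages also express, rose. The granule protein lactoferrin (*LTF*, 1.13) rose as well. The summed level of the list was 37.7 to 82.8 CPM in controls and 144 to 197 CPM in NASH. All 3 measured relatives of the ADGRG family rose: *ADGRG2* from 0.0449 ± 0.11 to 1.39 ± 0.947 CPM (log2 fold change 5.12, SE 1.01), *ADGRG1* from 5.5 ± 1.37 to 12.8 ± 1.9 CPM (1.22, SE 0.16) and *ADGRG6* from 6.95 ± 1.35 to 11 ± 3.08 CPM (0.67, SE 0.20). *ADGRG2* had 4 counts over all controls and 286 over NASH, so it entered the table through NASH and could only be called higher. *ADGRG1* lies 0.138 kb from *ADGRG3* in mCavPor4.1, so a gene boundary drawn differently in the assembled loci could move counts between them.

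*CIB4* encodes a calcium- and integrin-binding protein known from testis and male fertility, and all animals here were female. It was the 1 symbol of 11896 (0.00841%) with more than 3 counts in every control and at most 3 in every NASH animal. Controls had 51 to 124 counts and no NASH animal had any. Control levels were 2.1, 5.11 and 6.36 CPM (lowest, median, highest), with control 45 at 2.1 CPM and the other 5 at 4.29 CPM or more. The control mean was 4.76 ± 1.47 CPM (SD, n = 6), and the NASH level was at least 308-fold lower.

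Of 9 genes of the CIB family and its integrin partners 8 were measured, and 4 rose and 1 fell. Without NASH 20 or without NASH 41, 2 of them rose, and on library size alone 7 rose and 0 fell. *CIB1*, the widely expressed relative, fell slightly (log2 fold change -0.32, SE 0.09, edgeR adjusted p = 0.0074), although on library size alone it was at 0.15 and did not pass. The integrin subunits *ITGB3* (log2 fold change 1.44, on a count row with a second symbol) and *ITGAV* (1.04) and the adhesion kinase gene *PTK2* (0.53) rose, and *ITGB1*, *ITGA5* and *ITGA2B* did not pass. Of 14 sperm and germ cell genes 3 were measured and 2 rose. *DDX4*, an RNA helicase of germ cells, had no count in controls and 1.39 ± 0.967 CPM in NASH, so that it entered the table through its NASH counts alone and could only be called higher. *ODF2*, a protein of sperm tails and centrosomes, rose from 17 ± 1.48 to 23.4 ± 1.79 CPM. The nearest measured genes matched in mCavPor4.1 on either side of *CIB4* were *SLC35F6* (99.1 kb, log2 fold change 0.04) and *DRC1* (121 kb, 0.21). They did not pass the test, but passed as higher on library size alone (0.51 and 0.68, edgeR adjusted p = 0.000588 and 0.0138).

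**Figure D2:**
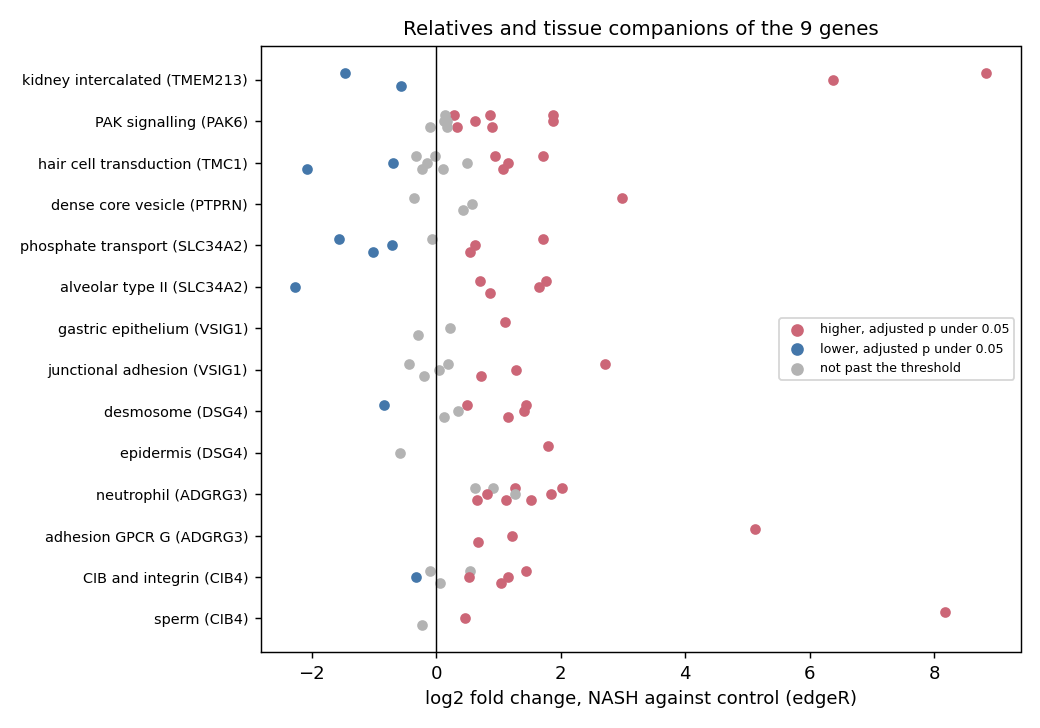
Log2 fold change (NASH against control, edgeR) of the measured genes in each list of relatives and tissue companions, with red for genes that rose, blue for genes that fell and grey for genes that did not pass. *ATP6V0A4* (8.83), *SLC4A1* (6.38) and *ADGRG2* (5.12) stand far to the right. *DDX4*, the outlying sperm gene, had no count in controls, so that its position depends on the fit.

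Over all lists, 86 of 193 relatives were measured, of which 45 (52.3%) rose, 10 (11.6%) fell and 31 did not pass the test. Their median log2 fold change was 0.56, beside 0 over all symbols. A gene with few counts in controls reached the table's minimum of 200 counts mainly through NASH, which favours a higher call, and this applies to *ADGRG2*, *ATP6V0A4*, *CLMP*, *CPE*, *DDX4*, *RHOQ*, *S100A9* and *SLC4A1* among the genes counted as higher. Of the 75 relatives with at least 100 counts in each group, a limit set after the data were seen, 37 (49.3%) rose and 10 (13.3%) fell, beside 25% and 27.4% of the 11212 symbols that met it. On library size alone, the median of all symbols was 0.48 and that of the relatives 1.04. The lists are short and were chosen with results of these data known, and no set test was made.

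The scale of the deposited values bears on how these genes look. The authors deposited regularised log2 (rlog) values, which pull low counts towards the mean of the gene, so that a gene with no count in a group still has a positive value there. *TMEM213* had a mean rlog of 5.23 in controls and 7.09 in NASH, a difference of 1.87, although its CPM differed at least 418-fold. *ADGRG3* had the largest rlog difference of the 9 genes (2.22) and stood at rank 28 of all symbols by absolute difference, and *DSG4* had the smallest (0.72, rank 1021). For *PAK6*, *TMC1*, *PTPRN*, *SLC34A2* and *VSIG1* the differences were 1.37, 1.30, 1.27, 0.87 and 1.81, and for *CIB4* -1.16.

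Animals with the same count of 0 did not all have the same rlog value, although some did at 2 decimals. The 6 controls without a *TMEM213* count had rlog values from 5.20 to 5.27, with the value of control 5, 1 of the 2 shallowest libraries, at 5.27. *VSIG1* was at 5.15 to 5.23 in the 5 controls without a count and at 5.29 in the control with 4. In no gene did these values reach those of the other group, and the smallest gap between groups was that of *DSG4* (0.54).

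**Figure D3:**
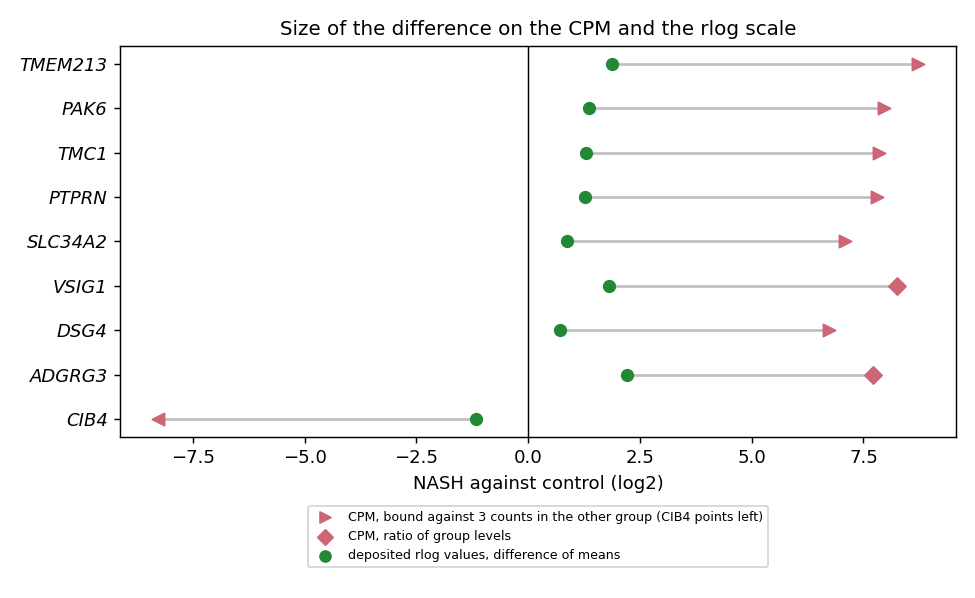
Size of the group difference of each gene on a log2 scale (NASH against control), with red arrows for lower bounds from CPM, red diamonds for CPM ratios and green circles for the difference of mean rlog values. The green circles lie between -1.16 (*CIB4*) and 2.22 (*ADGRG3*), and the arrow or diamond of each gene lies farther from 0 than its circle.

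Within the group in which they were read, the genes varied more than most symbols of similar level. The coefficient of variation (CV) was 33.5% for *TMEM213*, where symbols of similar CPM had a median of 12.7% and 91.8% of them were below it. *VSIG1* was the most variable of the 9 (CV 46.9%, 95.8% of similar symbols below) and *TMC1* the least (24.4%, 76.9%). For the other 6 the CV was between 26.1% and 37.9%, above between 73.0% and 94.5% of similar symbols. The highest animal was 2.01 to 3.88 times the lowest.

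No animal was high in all genes. Animal 65 was lowest in 5 of the 8 genes read in NASH, namely *TMC1*, *PTPRN*, *SLC34A2*, *VSIG1* and *DSG4*, and animal 11 was lowest in the other 3. Animals 2, 11, 20 and 41 were each highest in 2 genes. Animal 65 averaged 0.751 of the gene means, with a range from 0.436 (*VSIG1*) to 1.21 (*ADGRG3*), and animal 41 averaged 1.16.

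**Figure D4:**
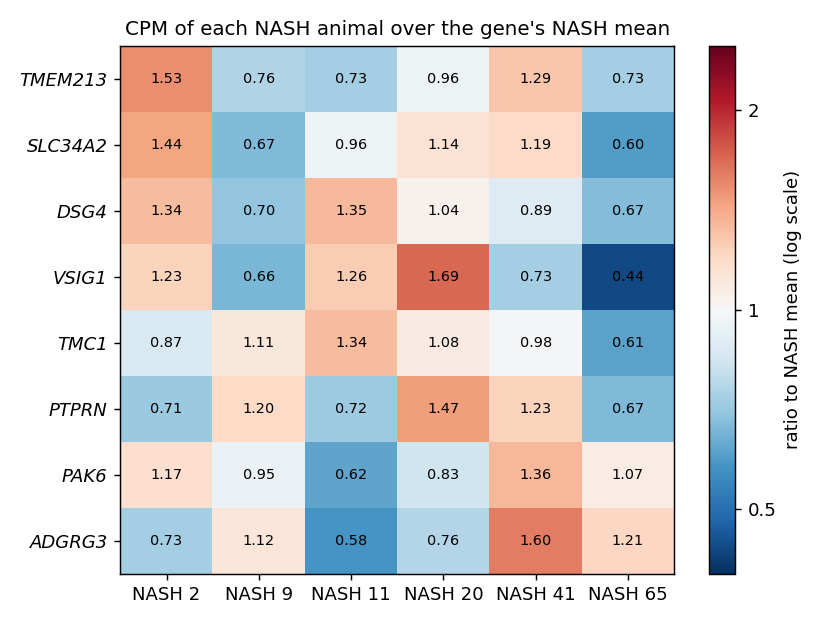
CPM of each NASH animal divided by the mean of the 6 NASH animals, for the 8 genes read in NASH, on a log colour scale with red above and blue below the mean. Animal 65 is blue in 6 of 8 genes, down to 0.44 in *VSIG1*, and red in *ADGRG3* (1.21).

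The rule that chose the genes used the contrast between groups and not the order of the animals within NASH, although earlier results of these data were known, and this order was compared over the 28 pairs of the 8 genes. By the exact permutation test of Pearson's r, 0 pairs passed after adjustment over the 28 and 1 pair had an unadjusted p under 0.05, and with Spearman's rho 0 pairs passed after adjustment. That pair was *TMEM213* and *SLC34A2* (r = 0.85, two-sided exact permutation p = 0.0458, adjusted p = 0.421, rho = 0.83 with exact permutation p = 0.0583), and r was 0.72 without the 2 animals farthest from the median of *TMEM213*. *VSIG1* and *DSG4* had r = 0.83 (exact permutation p = 0.05, adjusted p = 0.421, rho = 0.83 with exact permutation p = 0.0583). *ADGRG3* went the other way from both, with r = -0.75 against *VSIG1* and r = -0.78 against *DSG4* (exact permutation p = 0.0903 for each, adjusted p = 0.421). Of the 28 correlations 19 were positive and 9 negative. The smallest p that 720 pairings of 6 animals can give in two-sided form is 0.00278, so that a single pair could not have passed after adjustment over 28, and the count of 0 says little about whether the genes vary together.

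Each gene was also set against the summed level of its own list over the 6 animals in which it was read. None of the 14 relations passed after adjustment, and 1 had an unadjusted p under 0.05 by the exact permutation test. This was *VSIG1* and the gastric genes (r = 0.80, exact permutation p = 0.0472, adjusted p = 0.661, rho = 0.89 with exact permutation p = 0.0333 and adjusted p = 0.467), with r = 0.71 without the 2 animals farthest from the median. *ADGRG3* and the neutrophil genes had r = 0.57 (exact permutation p = 0.236) and rho = 0.09 (exact permutation p = 0.919), and r fell to -0.01 without 2 animals. *TMC1* and the hair cell genes had r = -0.72 (exact permutation p = 0.114).

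The symbols most like each gene over its 6 animals are given as a description, since 11633 symbols were screened in NASH and 11115 in controls and high values of r are common over so few animals. For *SLC34A2* they were the bile duct keratin *KRT19* (r = 0.993), the endocytic receptor *CUBN* (0.993) and the epithelial integrin *ITGB4* (0.991). For *TMEM213* they were *CMTM7* (0.986), *YKT6* (0.984) and *PAXIP1* (0.983), and for *VSIG1* the chemokine symbols *CCL15*, *CCL23* and *CCL15.CCL14*, which share 1 count row (0.997). *DSG4* was most like *RALB* (0.990), *RABL3* (0.983) and *FNDC11* (0.967), and *PAK6* most like *NSUN2*, *LRP10* and *HMOX2* (0.985 each). For *PTPRN* the symbols were *NEMP1* (0.992), *PAFAH1B2* (0.991) and *PTP4A1* (0.990), and for *TMC1* they were *SUPT16H* (0.971), *STYX* (0.971) and *TET1* (0.970). *ADGRG3* was most like *PFKFB4* (0.988), *AMBRA1* (0.986) and the B cell gene *FCRLA* (0.983). *CIB4* in controls was most like *SPIRE1* (0.989), *TLR2* (0.989) and *BCL2A1* (0.983). Between 1.93% and 6.15% of the screened symbols reached r = 0.8 with each gene.

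The pattern of a near absent group was rare. With at most 3 counts in every control and more in every NASH animal, 34 symbols (0.286%) were near absent in controls, of which 21 had no count in any control. They include 7 of the 8 genes read in NASH. *VSIG1* and *ATP6V0A4* lay just outside, each through 4 counts in control 10. Another symbol of the set, the keratin *KRT23*, had no count in controls and 19.5 ± 5.35 CPM (SD, n = 6) in NASH. Across the 34 symbols each control had 3 to 16 counts in all.

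At a limit of 0 counts 22 symbols were near absent in controls and at a limit of 10 counts 145, with 6 and 8 of the 9 genes among them. In the opposite direction *CIB4* stood alone at limits of 0 and 3. At 10 counts 4 symbols met the limit, among them the transcriptional coactivator gene *EYA1* and the adhesion gene *MDGA1*, which were chosen after their values were seen. *EYA1* was at 1.9 CPM in controls and 0.136 CPM in NASH, with at most 9 counts in a NASH animal, and *MDGA1* at 2.32 and 0.0346 CPM, with at most 4.

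**Figure D5:**
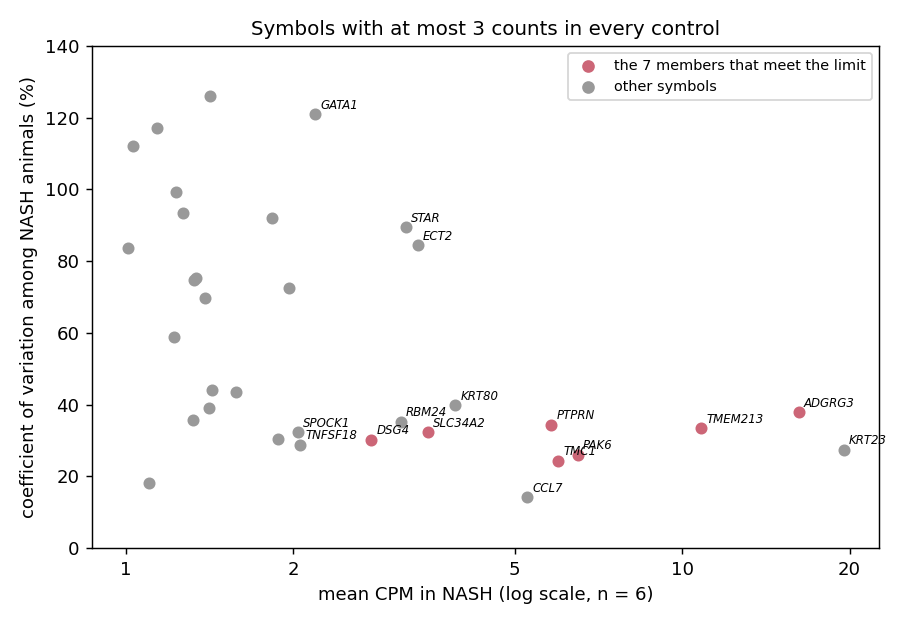
Mean CPM in NASH (log scale, n = 6) against the CV among NASH animals for the 34 symbols with at most 3 counts in every control, with the 7 genes described here in red and the other 27 in grey. The red points lie between 24.4% and 37.9%, and grey points reach 126%.

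Among these 34 symbols the CV in NASH was lower in the 7 genes than in many others. Their CV was between 24.4% and 37.9% with a median of 32.3%, and that of the other 27 between 14.3% and 126% with a median of 69.7%, of which 15 were above 50%. Many of these had fewer counts. The 6 others with a mean CPM at or above the lowest of the 7 had a median CV of 37.6% (14.3% to 89.5%). The 7 genes were chosen with these values known, so neither the difference between the 7 and the other 27 nor its relation to CPM was tested.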

How the data were processed

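Liver mRNA of 6 NASH and 6 control guinea pigs was analysed, 1 library per animal, grouped by the sample titles. The authors deposited raw counts per assembled locus or Ensembl gene (39061 rows) after trimming (Trimmomatic 0.38.0), mapping to CavPor3.0 (HISAT2 2.1.0) and assembly and counting (StringTie 1.3.6), as the study's methods and the submitters' processing notes name them. They also deposited log2 values, made with the rlog transformation of DESeq2, for 11896 human symbols with a total of at least 200 counts. The count table has no symbols. Repeating the rlog transformation (DESeq2 1.42.0, R 4.3.3) paired every symbol with its count row (largest difference 8e-07, 11031 rows), and each of the 9 genes was alone on its row.

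Counts were tested with edgeR 4.0.16 (TMM, robust quasi-likelihood fit, whole-table library sizes) and Benjamini-Hochberg adjustment over all 11896 symbols at 0.05. Log2 CPM used a prior count of 2. Correlations over 6 animals used exact permutation of all 720 pairings. The test was also run on simulated data, and the outcome is not reported here. In all 30 pairs of animals within a group the spread exceeded counting error. Neighbours were read from the RefSeq table of mCavPor4.1 (10336 of 11896 symbols matched, 86.9%), within 500 kb, so a measured gene without a match could lie closer. No sequence or coordinate is printed.

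Named genes were the 9 members, the extreme genes past the threshold and the family members of each list, the nearest neighbours, the genes near absent in 1 group with the highest CPM, and the 3 symbols most alike to each member. A few further list genes and the marker lists are given as context, chosen after their values were seen. The members, lists and tests were chosen with earlier results of these data known. Alternatives tried were RLE size factors, library size alone, DESeq2, every count row, a threshold of 0.01, limits of 0 and 10 counts, rlog values, a prior count of 0.5, Spearman's rho and each animal left out in turn. A minimum of 100 counts in each group was added after seeing the data. Promoter motifs were not analysed here. A few genes that the rule names are left unreported.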

Additional observations from a re-analysis of the deposited data

Results flagged for a closer look

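A further 7391 loci, each totalling 200 counts or more, carry no symbol and entered no comparison. Of these, 49 (0.663%) had at most 3 counts in every control and more in every NASH animal, and 4 (0.0541%) had the opposite pattern, a signal in data that the comparisons above do not use. They are named by locus only and were not studied further. In no group of 6 did a single animal of the 9 genes stand apart by Dixon's test at 95%.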

How the results depend on the processing

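With RLE size factors, DESeq2 and 0.5 as the prior count, no count of calls moved by over 1.5 times. Library size alone moved the median of all symbols to 0.48, with 7603 symbols higher and 911 lower (3318 and 3093 with TMM). It left 6 relatives lower in all. By list it gave 1 kidney gene lower, 11 PAK genes higher, 7 hair cell genes higher and 1 lower, 3 vesicle genes higher, 5 junctional genes higher, 7 CIB and integrin genes higher and 0 lower, 1 hepatocyte marker higher and 3 lower, and 6 macrophage markers higher. The folds became 585 (*TMEM213*), 349 (*PAK6*), 322 (*TMC1*), 313 (*PTPRN*), 189 (*SLC34A2*), 149 (*DSG4*) and 289 (*ADGRG3*). It turned the sign of the log2 fold change of *CIB1* (0.15), *ASGR1* (0.29), *SRP14* (0.44), *ANAPC4* (0.44) and *PSMD10* (0.29). Of these only *ASGR1* passed the test both with TMM and on library size alone. A threshold of 0.01 left 1 hair cell gene lower and 2 CIB and integrin genes higher, and testing every count row left 0 lower in that list. Limits of 0 and 10 counts gave 22 and 145 symbols near absent in controls and 1 and 4 in NASH. Leaving out 1 animal kept the relatives that rose at 41 to 45 and those that fell at 10 to 12. It gave 0 to 1 junctional and 0 to 1 epidermal genes lower (1 without control 5), 2 to 4 CIB and integrin genes higher (2 without NASH 20 or 41), and 1 to 2 symbols near absent in NASH (2 without NASH 11). For the 9 genes, low counts limit the bounds: those of *DSG4* and *SLC34A2* were 84.2 to 113 and 107 to 145 with 1 animal left out. No paired analysis was possible because the groups share no animal numbers.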
